A study of Bos taurus with 15 samples.

Results

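The 3 globin genes HBB, HBG and HBA were followed through single-cell libraries of the digestive tract of newborn (NB) and adult (AD) cattle. They were chosen by their symbols, out of 27270 genes in the count tables, because earlier results of these data had shown them to differ between the libraries. Their gene identifiers were ENSBTAG00000037644 for HBB, ENSBTAG00000038748 for HBG and ENSBTAG00000051412 for HBA. Each was described by library, by stage and by cell type, and barcodes with 20 or more globin UMIs (unique molecular identifiers, each standing for 1 captured RNA molecule) were set apart from those with fewer.

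The study asked how the cell types of cattle tissues change from birth to adulthood. The series held 15 libraries of Holstein dairy cattle, 1 for each tissue and stage. The 11 NB libraries came from newborn calves, of which the study sampled 3, and the calf behind each library was not given in the labels. They were 3 of stomach chambers (reticulum, omasum and abomasum), 3 of small intestine (duodenum, jejunum and ileum), 3 of large intestine (cecum, colon and rectum), and 1 each of salivary gland and liver. The 4 AD libraries came from the duodenum, jejunum, cecum and colon of a lone lactating cow. Every AD suspension was treated with a solution that lyses red blood cells. Among the NB suspensions such a step was stated for the salivary gland, from which blood was also removed, and not for the other tissues. The NB gut tissues were first treated with EDTA and trypsin, and dead cells were removed from suspensions of low viability in either stage. Stage, animal, dissociation and red cell lysis therefore changed together and cannot be told apart, and no difference between stages was tested, with 1 library on each side in a tissue and all AD libraries from the same cow.

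Hemoglobin, the oxygen carrier of red blood cells, is built of alpha-like and beta-like globin chains around heme. HBA is an alpha-like gene, whereas HBB and HBG are beta-like genes, and the symbol HBG is used for a beta-like chain of fetal blood, which ruminants and some other mammals replace around birth by an adult chain. Red blood cells of mammals lose their nucleus and most of their RNA but keep globin messages, so blood left in a tissue gives barcodes in which globin fills most of the UMIs, and free globin RNA can enter droplets of any cell type. The symbols were taken as the tables gave them, and their pairing with fetal or adult chains was not checked against sequence.

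Between 17707625 and 129458578 UMIs were counted per library, with 48674267 to 67485845 in the AD libraries. The tables held 172405 barcodes, of which 129682 passed the limits stated for the study (at least 500 and at most 4000 genes, fewer than 50000 UMIs, and a mitochondrial share below 40%), and the median depth of passing barcodes ran from 3626 to 9147 UMIs per library. Of 168616 different barcode sequences, 3736 occurred in 2 or more libraries. Of the 346 barcodes with 20 or more globin UMIs, 14 were shared in this way, and 0 of them were high in both libraries.

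The level of each gene was expressed in counts per 1000000 UMIs of the library (CPM). HBB was high in 5 NB libraries and near 0 elsewhere. It stood at 286 CPM in the NB rectum, 221 CPM in the NB colon, 211 CPM in the NB cecum, 75.3 CPM in the NB duodenum and 54.6 CPM in the NB ileum. The counting intervals (95%, exact Poisson) ran from 217 to 224 CPM in the colon, 283 to 290 CPM in the rectum and 208 to 214 CPM in the cecum, but they cover the counting of UMIs only. Single barcodes held up to 2943 of the 13796 HBB UMIs of the colon and up to 2327 of the 17648 of the cecum, so no order is read among these libraries. The NB abomasum held 0.564 CPM, and the NB reticulum, omasum and salivary gland held 0 HBB UMIs, which allows up to 0.0239, 0.0232 and 0.169 CPM (3 UMIs of the total). In the AD libraries HBB was 0.364 CPM in the duodenum, 0.0148 in the jejunum, 0.0396 in the cecum and 0.0205 in the colon. The 18 HBB UMIs of the AD duodenum all lay in 1 barcode.

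HBA was also high in these 5 NB libraries and was not absent elsewhere. It reached 220 CPM in the NB colon, 158 CPM in the NB cecum, 152 CPM in the NB rectum, 63.9 CPM in the NB ileum and 62.0 CPM in the NB duodenum. The other NB libraries held between 0.278 CPM in the omasum and 1.66 CPM in the abomasum. The AD levels of HBA were 2.00 CPM in the duodenum, 1.42 CPM in the jejunum, 2.27 CPM in the cecum and 0.699 CPM in the colon, each above the HBB level of the same library.

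HBG had a different pattern and was the main globin of the AD libraries. It stood at 75.9 CPM in the AD duodenum, 31.5 CPM in the AD jejunum, 24.8 CPM in the AD cecum and 17.4 CPM in the AD colon. In the NB libraries it was 135 CPM in the cecum, 118 CPM in the colon, 26.03 CPM in the salivary gland, 25.6 CPM in the duodenum and 14.5 CPM in the rectum. The remaining NB libraries ran from 0.0637 CPM in the reticulum to 9.44 CPM in the abomasum. HBG therefore was found in libraries with almost no HBB, such as the NB abomasum, jejunum (8.10 CPM), liver (3.56 CPM) and salivary gland.

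**Figure D1:**
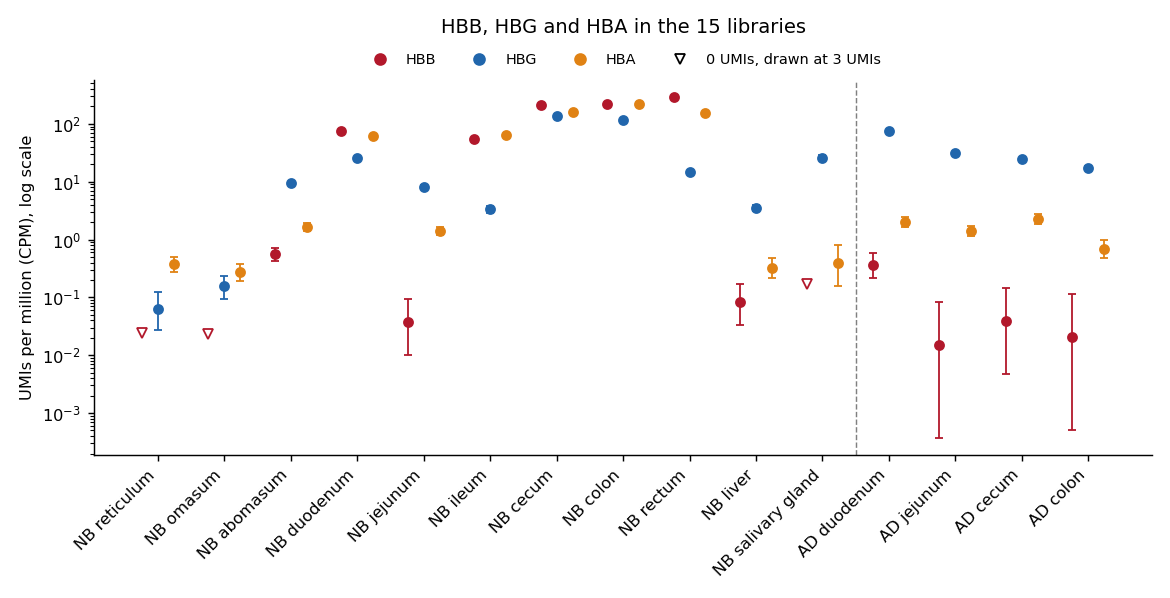
Levels of HBB, HBG and HBA in CPM (log axis) in each of the 15 libraries, with 95% counting intervals. HBB and HBA were high together in the NB duodenum, ileum, cecum, colon and rectum, whereas HBG was also found in all 4 AD libraries, between 17.4 and 75.9 CPM.

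In the 4 tissues sampled at both stages the direction depended on the gene. HBB was 207-fold higher in the NB than in the AD duodenum, and this ratio was 39.6 among barcodes within the limits and 1.53 among those under 20 globin UMIs. The AD cecum and colon held 2 and 1 HBB UMIs, and the counting intervals of the NB to AD ratio began at 1478 and 1927. HBA was 30.9-fold higher in the NB duodenum, 69.6-fold higher in the NB cecum and 315-fold higher in the NB colon, whereas its NB to AD ratio in the jejunum was 0.984 with a counting interval of 0.756 to 1.28. Among barcodes under 20 globin UMIs the HBA ratio turned to 0.862 in the duodenum and 0.812 in the cecum (0.634 among barcodes within the limits) and stayed at 22.5 in the colon. HBG was 5.45-fold higher in the NB cecum and 6.77-fold higher in the NB colon, but its NB to AD ratio was 0.338 in the duodenum and 0.257 in the jejunum. Among barcodes under 20 globin UMIs the HBG ratio was 1.50 in the cecum, 1.25 in the colon, 0.0481 in the duodenum and 1.203 in the jejunum. These genes were chosen for such differences, and large ratios were common in the same libraries: of all genes with a mean of 1 CPM or more, 26.1% in the duodenum, 20.6% in the jejunum, 24.5% in the cecum and 19.8% in the colon were at least 2-fold higher in the NB library, and 23.2%, 10.0%, 13.0% and 19.3% at least 2-fold higher in the AD library. In a level summed over a library, fewer cells of a type and less RNA per cell cannot be told apart.

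The stage difference in the duodenum rested on few barcodes. With only barcodes under 20 globin UMIs, the NB to AD ratio of the 3 genes together changed from 2.08 to 0.101 in the duodenum and from 0.289 to 1.14 in the jejunum. It fell from 18.6 to 1.52 in the cecum and from 30.8 to 3.84 in the colon.

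The share of HBG among the beta-like UMIs (HBB and HBG together) differed between libraries. In the AD libraries the share was 99.5% in the duodenum, 99.8% in the cecum, 99.9% in the colon and 99.95% in the jejunum. Among the NB libraries it was 4.83% in the rectum, 5.77% in the ileum, 25.4% in the duodenum, 34.8% in the colon and 39.0% in the cecum. The exact binomial interval was 4.56% to 5.10% in the rectum and 38.4% to 39.6% in the cecum. The other NB libraries with 20 or more beta-like UMIs lay between 94.4% in the abomasum and 100% in the omasum and salivary gland. The omasum held only 20 such UMIs, 13 of them in 1 barcode (interval 83.2% to 100%). The NB reticulum held 8 and was left out. These shares rested on the barcodes with many globin UMIs in the NB libraries: with only barcodes under 20 globin UMIs, the share was 55.05% in the rectum, 67.7% in the ileum, 76.9% in the duodenum, 80.1% in the colon and 88.7% in the cecum, and still 99.1% or more in the AD libraries.

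Of the 172405 barcodes, 346 (0.201%, exact binomial interval 0.180% to 0.223%) held 20 or more globin UMIs, and they fell into 2 kinds. HBA made up 26.3% or more of the globin UMIs in 64 of them and 3.85% or less in the other 282, with no barcode between. Around the threshold, 98 barcodes held 20 to 29 globin UMIs and 99 held 15 to 19, of which 0 and 9 respectively had 10% or more HBA. All 45 barcodes with 1000 or more globin UMIs were of the kind with HBA.

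The 64 barcodes with HBA were mostly filled with globin. They held a median of 1848 globin UMIs, which were a median of 85.1% of all UMIs of the barcode, beside a median of 158 detected genes. The erythroid gene ALAS2, which starts heme synthesis, was found in 60 of them, and HBM, a further alpha-like globin, in 39. In 53 of them none of EPCAM, PTPRC and PECAM1, the markers of epithelium, leukocytes and endothelium, had a UMI. Of the 64, 12 passed the limits on barcodes, and 50 had under 500 genes.

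All 64 came from NB libraries. The NB cecum held 17 (0.203% of its barcodes), the NB rectum 15 (0.145%), the NB colon 14 (0.170%), the NB duodenum 13 (0.0888%), the NB ileum 4 (0.0391%) and the NB abomasum 1 (0.00704%). The exact binomial intervals of the NB cecum (0.119% to 0.325%), rectum (0.0812% to 0.239%), colon (0.0929% to 0.285%) and duodenum (0.0473% to 0.152%) overlapped. None was found in the 4 AD libraries or in the NB reticulum, omasum, jejunum, liver and salivary gland. A count of 0 among the 12266 barcodes of the AD duodenum allows a share of up to 0.0245%. The barcodes with 20 or more globin UMIs held 99.3% of the HBB UMIs of the NB duodenum, 98.7% in the ileum, 99.2% in the cecum, 99.2% in the colon and 98.5% in the rectum.

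A few barcodes of this kind were not filled with globin. In 46 barcodes globin made up at least 50% of the UMIs, and in 6 it made up under 5%. Of these 6, 4 held between 6 and 61 EPCAM UMIs (1 in the NB cecum, 2 in the NB duodenum and 1 in the NB rectum), and 1 in the NB abomasum held PECAM1. The other, in the NB colon, held 31 HBA UMIs with 0 of HBB and 0 of HBG among 8273 UMIs. Mixed droplets were not called.

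The 282 barcodes with HBG and little HBA did not look like red cells. They held a median of 37 globin UMIs (20 to 217), a median of 0.528% of their UMIs, beside a median of 1975.5 genes, and 273 of them passed the limits on barcodes. HBB had 0 UMIs in 276 of them and HBA had 0 UMIs in 278, where little HBA was what defined this kind. HBQ1, an alpha-like gene, had a UMI in 5 of the 277 that were compared by gene. ALAS2 and HBM were each found in 0 of 282. The leukocyte marker PTPRC was found in 219, the receptor KIT in 190, the T cell receptor component CD3E in 150 and EPCAM in 18. These shares differed between libraries, and 109 of the 190 with KIT came from the NB cecum. KIT was found in 10 of 11 in the AD colon, but in 3 of 22 in the AD jejunum and 15 of 46 in the AD duodenum. CD3E was found in 5, 19 and 35 of these, and PTPRC in 2 of 9 in the NB jejunum. The labelling of every barcode with 20 or more globin UMIs as a red cell therefore did not hold for this kind, which is called here by its leading genes.

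This kind was found in both stages and in 12 libraries. The NB cecum held 125 (1.50% of its barcodes), the AD duodenum 46 (0.375%), the AD cecum 23 (0.198%), the AD jejunum 22 (0.151%), the NB rectum 15 (0.145%) and the AD colon 11 (0.103%). The interval of the NB cecum (1.25% to 1.78%) lay above that of the AD duodenum (0.275% to 0.500%), which lay above that of the AD jejunum (0.0946% to 0.228%). These intervals cover the counting of barcodes within 1 library each, so no order of tissues or stages is read from them. The NB abomasum held 10, the NB jejunum 9, the NB salivary gland 9 (0.288%), the NB colon 7, the NB liver 3 and the NB duodenum 2. All barcodes with 20 or more globin UMIs in the AD libraries were of this kind.

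**Figure D2:**
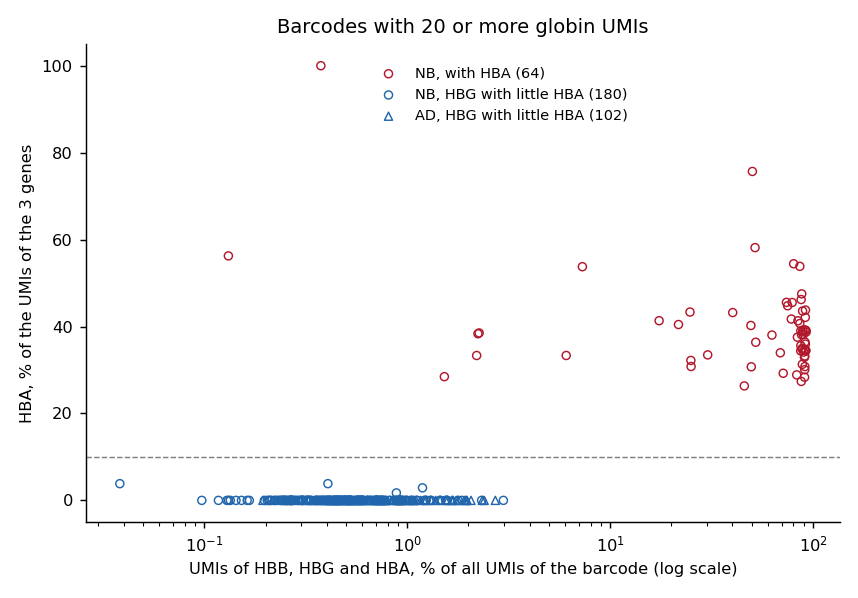
Each point is 1 of the 346 barcodes with 20 or more globin UMIs. The log axis gives globin as a percent of all UMIs of the barcode, and the other axis gives HBA as a percent of its globin UMIs. The 64 barcodes with HBA lay at 26.3% HBA or more and reached 92.4% globin. The 282 others lay at 3.85% HBA or less and reached 2.97% globin.

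The beta-like chain differed from barcode to barcode among those with HBA. Of 63 with 20 or more beta-like UMIs, 41 had under 1% HBG, 4 had 2.17% to 19.7%, 11 had 40.1% to 50.5% and 7 had 97.5% to 100%. None lay between 20% and 40% or between 55% and 90%, bounds that were set on these same barcodes. In the NB colon 6 barcodes had under 1%, 3 had 40% to 55% and 4 had over 90%. In the NB rectum 13 of 15 had under 1% and 0 had over 90%, and in the NB cecum 12 of 17 had under 1% and 2 had over 90%.

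The spread between barcodes was far above counting error. The SD of the HBG share between barcodes was 44.6 percentage points in the NB colon (n = 13), against 2.97 from counting alone. It was 33.4 against 2.55 in the NB cecum (n = 17), 30.9 against 2.21 in the NB duodenum (n = 13) and 10.3 against 0.407 in the NB rectum (n = 15). The HBA share of globin had medians of 35.0% for barcodes under 1% HBG, 43.8% for the 4 at 2.17% to 19.7%, 38.5% for those at 40% to 55% and 45.5% for those over 90%. Barcodes of a library share their animal or animals, and which calf gave each library was not given in the labels.

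**Figure D3:**
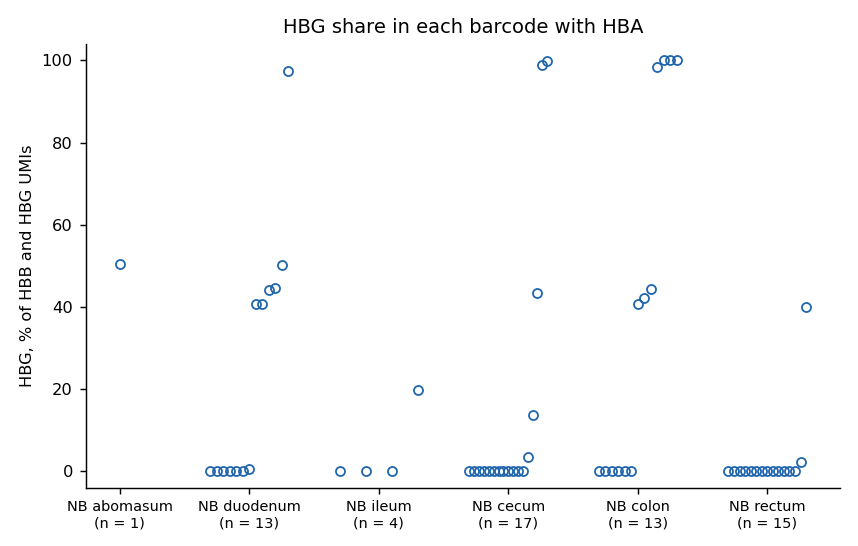
HBG as a percent of HBB and HBG UMIs in each of the barcodes with HBA, by NB library. The points lay under 20%, at 40.1% to 50.5%, or at 97.5% and above, with none between 20% and 40% or between 55% and 90%.

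Other red cell genes were looked for beside the globins. The barcodes with HBA of the NB duodenum, cecum, colon and rectum (59 in all) were set against the barcodes of the same library with fewer than 20 globin UMIs, with the globin UMIs left out of the totals. A gene was called higher in a library when it had 5 or more UMIs and the lower bound of its CPM was at least 2 times the CPM of the other barcodes. A gene was tested in a library when it had 5 or more UMIs in the barcodes with HBA or 10 CPM or more in the others. Of 7083 genes tested in at least 3 of the 4 libraries, 22 (0.311%) were called in 3 or more.

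The levels in the barcodes with HBA depended on a few deep barcodes with little globin. A single barcode held 87.6% of the non-globin UMIs in the NB cecum and 55.7% in the NB rectum, and no order of the libraries is read from these levels. ALAS2 stood at 1415 CPM in the NB rectum, 3141 CPM in the cecum, 5927 CPM in the duodenum and 9274 CPM in the colon, against at most 0.0244 CPM in the other barcodes. In only the 43 barcodes with at least 50% globin it stood at 8877 CPM in the rectum, 28972 CPM in the cecum, 50564 CPM in the duodenum and 33327 CPM in the colon. HBM ran from 1247 CPM in the cecum to 2708 CPM in the rectum, and from 9778 CPM in the colon to 26775 CPM in the rectum with at least 50% globin.

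Further genes were called in 3 or 4 of the libraries. ATP5IF1, an inhibitor of the mitochondrial ATP synthase, was found in all 59 barcodes at a median of 7176 CPM over the 4 libraries against 371 CPM, and at 48482 CPM with at least 50% globin. CA2, a carbonic anhydrase of the red cell cytosol, had a median of 615 CPM against 76.0 CPM, and 4161 CPM with at least 50% globin. The mitochondrial carrier UCP2 and the autophagy protein GABARAPL2 were also called in 4 of 4 libraries. EPB41, a protein of the red cell membrane skeleton, GPX1, a peroxidase, and SLC25A39, a mitochondrial carrier, were called in 3 of 4. With at least 50% globin 35 of 7082 genes (0.494%) were called in 3 or more libraries, 21 of the 22 among them, and EPB41 was not.

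By list, 1 of 1 other globin genes tested was called (HBM), 2 of 10 heme and iron genes (ALAS2 among them), 2 of 7 genes of the red cell cytosol (CA2 and GPX1), 1 of 3 membrane genes (EPB41) and 0 of 1 erythroid regulators. Of the genes of globin switching 0 of 3 were called, of late maturation 0 of 4 and of hemoglobin clearance 0 of 4. At the share of all genes (0.311%) nothing is read from these counts of 0. HBM and ALAS2 stood far under 10 CPM in the other barcodes. They were therefore tested only through their UMIs in the barcodes with HBA, and nothing is read from their calls by list. The median ratio of all tested genes was 0.736. AHSP, a chaperone of free alpha chains, was found in 8 of the 59 barcodes and called in 2 of the 4 libraries, and SLC4A1, the anion exchanger of the red cell membrane, was found in 2 barcodes.

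The embryonic beta-like genes HBE1, HBE2 and HBE4 had 4, 2 and 1 UMIs in all 15 libraries together. HBQ1, an alpha-like gene, was found in every library at 0.957 to 3.62 CPM, with its highest level in the NB reticulum, where HBB had 0 UMIs. Embryonic alpha-like genes were not analysed here.

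In the NB cecum, the only library with 50 or more barcodes of 20 or more globin UMIs, the 142 such barcodes together were also set against the rest. Of 7651 genes of 10 CPM or more in the library, 294 (3.84%) were at least 2-fold higher in these barcodes, and 0 of the 30 red cell list genes that could be tested were among them, a count from which nothing is read at this share. ALAS2 and HBM lay under the minimum of 10 CPM in the library and were not tested, and both were at least 2-fold higher without this minimum (95.8 CPM against 0.0122 CPM and 38.02 CPM against 0.0365 CPM). The 5 with the highest ratio were IL17F and IL22, cytokines of gut lymphocytes, CRABP1, a retinoic acid binding protein, LTB, a lymphotoxin, and TMIGD2, a co-stimulatory receptor. When only the 14 barcodes with at least 50% globin were used, 13 of the 30 list genes were called, against 8.03% of all genes. These 14 barcodes held few UMIs beside globin: 4 UMIs of EPB41 stood at 905 CPM there, against 25.6 CPM in the other barcodes. No minimum number of UMIs was set, so a lone UMI could be enough for a call, and nothing is read from the 13.

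The genes of the barcodes with HBG and little HBA were compared with the other PTPRC barcodes of the same library, in 10 libraries and 277 barcodes. Genes were tested and called by the same rules as for the barcodes with HBA. Of 7342 genes tested in at least 5 libraries, 67 (0.913%) were called in 5 or more, and against all other barcodes 105 of 7677 (1.37%). CRABP1 and TMIGD2 were called in 10 of 10 libraries. CRABP1 ran from 206 CPM in the AD jejunum to 3511 CPM in the NB jejunum, with a median of 1226 CPM against 8.998 CPM, though only 92 barcodes held it.

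Cytokine and cytokine receptor genes were among the 67. IL7R, the receptor of the lymphocyte growth factor IL7, had a median of 1020 CPM against 181 CPM and was called in 9 of 10 libraries. IL22 had a median of 318 CPM against 8.78 CPM and was called in 8, with 0 UMIs in the NB abomasum and salivary gland. It was held by 52 of 125 barcodes in the NB cecum, but by 3 of 46 in the AD duodenum (21 UMIs). In the NB colon 2 of 7 held it and in the NB jejunum 2 of 9. The bounds treat each UMI as separate, although UMIs were bunched in barcodes. LTB had a median of 802 CPM against 117 CPM and was called in 8, as were IL17F, IL23R (the receptor of IL23), ZBTB16 (a transcription factor of innate-like lymphocytes) and PTGDR2 (a prostaglandin D2 receptor). IL17F had 0 UMIs in the AD duodenum and jejunum. KIT had a median of 198 CPM against 30.0 CPM and was called in 9. CD3E was called in 1 of 10 libraries, at a median of 403 CPM against 603 CPM. These genes were singled out after their values were seen, and they describe the barcodes without giving them a cell type.

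Of 27 red cell list genes tested in this comparison, 0 were called, and at the share of all genes (0.913%) so few could be called that nothing is read from this count. ALAS2, HBM and GATA1, an erythroid transcription factor, had 0 barcodes of the 277, and so did AHSP and SLC4A1. Of the marker lists, KIT and PECAM1 were called, and the macrophage genes were low, with a median ratio of 0.0591 for 4 genes tested against 0.976 for all genes.

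The low levels of globin in the other barcodes were compared across EPCAM, PTPRC and PECAM1 barcodes with fewer than 20 globin UMIs, each holding 1 of the 3 markers and none of the other 2. HBB was close between them in the libraries where it had the most UMIs. In the NB rectum it was 3.47 CPM in EPCAM, 3.47 CPM in PTPRC and 3.77 CPM in PECAM1 barcodes, and in the NB colon 1.31, 1.73 and 1.73 CPM. In the NB cecum it was 1.26, 1.54 and 2.10 CPM. The intervals of the highest and lowest group overlapped in all 14 libraries compared. In 3 of these (AD colon, NB omasum and NB reticulum) every group held 0 HBB UMIs, and outside the NB rectum, cecum and colon the groups held too few to show a difference, so an excess in 1 cell type was not detectable at this depth.

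HBG and HBA were uneven. For HBG the highest and lowest group had intervals apart in 11 of 14 libraries, and PTPRC barcodes were the highest in 9 libraries, 8 of them with intervals apart. One of the 11, the NB liver, rested on a lone EPCAM barcode that held all 18 HBG UMIs of that group (17.9 CPM). In the AD duodenum HBG was 47.8 CPM in PTPRC barcodes against 6.23 CPM in EPCAM barcodes, and in the NB rectum 16.9 CPM against 0.771 CPM. For HBA the intervals were apart in 6 libraries, with EPCAM barcodes the highest in 4 of these and PTPRC barcodes in 2. Among the 4, the AD duodenum rested on 10 HBA UMIs in 3 of 52 EPCAM barcodes, 6 of them in 1 barcode. HBA without HBB was thus common at low levels. Of the HBA and HBB UMIs together, HBA was 33.0% in the high and 98.1% in the low barcodes of the NB ileum, 48.3% and 90% in the NB colon and 44.6% and 75.6% in the NB duodenum, but 34.5% and 41.7% in the NB rectum and 42.8% and 50.3% in the NB cecum.

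Within the PTPRC barcodes without EPCAM and PECAM1, HBA went with CD79B, a component of the B cell receptor, which was chosen after the values had been seen. Barcodes with CD3E or with C1QB, a macrophage gene, were left out of the CD79B group but kept in the group without CD79B. Some HBA therefore lay in neither group: of 66 HBA UMIs in PTPRC barcodes of the AD cecum, 43 lay in the CD79B group and 5 in the other. HBA in PTPRC barcodes with CD79B stood at 87.4 CPM in the NB colon (308 UMIs in 462 barcodes) and at 82.5 CPM in the NB ileum (1069 UMIs in 1794 barcodes), against 3.22 CPM and 14.1 CPM without CD79B. HBB had only 6 and 8 UMIs in the same CD79B barcodes. In the AD libraries HBA was 25.2 CPM with CD79B against 0.176 CPM without it in the cecum, 22.6 against 0.0310 CPM in the colon and 20.6 against 0.249 CPM in the duodenum, with 0 HBB UMIs in each.

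The AD jejunum held 3 HBA UMIs in its 135 CD79B barcodes (2.91 CPM) against 0.107 CPM. Intervals were apart in these 6 of 10 libraries. They treat each UMI as separate, although UMIs were bunched in barcodes and the intervals are then too narrow. The 3 UMIs of the AD jejunum lay in 2 barcodes, the 19 of the AD colon in 9, and 18 of the 59 of the AD duodenum in 1. In the NB cecum, rectum and liver no HBA UMI was found among the 35, 11 and 39 barcodes of the CD79B group. The upper bounds of 6.53, 19.5 and 9.39 CPM lay below the levels of the NB colon and ileum. All PTPRC barcodes of the NB liver held 8 HBA UMIs, and those without CD79B held 7. The NB salivary gland held 2 HBA UMIs in the 290 barcodes of its CD79B group (1.25 CPM). The CD79B barcodes were not alike in these tissues. Barcodes with 50 or more UMIs of JCHAIN, a joining chain of secreted antibodies, were 29 of the 35 in the NB cecum, 11 of 11 in the NB rectum and 14 of 39 in the NB liver, but 103 of 1794 in the NB ileum and 39 of 462 in the NB colon. HBA was lower in such barcodes of the NB ileum (6.34 CPM, interval 2.06 to 14.8) and the NB colon (20.4 CPM, 8.82 to 40.2) than over all their CD79B barcodes, which include them. These levels rested on 5 UMIs in 4 barcodes of the NB ileum and 8 UMIs in 3 barcodes of the NB colon. The part of JCHAIN barcodes in the differences between libraries was not tested.

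A share of 27.4% of the CD79B barcodes of the NB ileum and 24.5% of those of the NB colon held an HBA UMI, at median depths of 5521 and 5917 UMIs. In CD79B barcodes with MKI67 or TOP2A, genes of dividing cells, HBA was 107 CPM against 63.0 CPM without them in the NB colon, but 72.1 CPM against 114 CPM in the NB ileum. The share of barcodes with an HBA UMI was higher with these genes in both, at 42.8% against 13.5% in the NB colon and 32.8% against 19.7% in the NB ileum, where median depths were 10447 against 4590 UMIs and 7911.5 against 3580 UMIs. CD79B barcodes with 2 or more HBA UMIs were set against those with 0: 87 of 7585 genes (1.15%) were higher in the NB colon, where STMN1 and NUSAP1, genes of dividing cells, were among the first 6 and the depths were 11009 and 5404 UMIs. In the NB ileum 29 of 8877 genes (0.327%) were higher, led by MGP, ADAMDEC1, ACTG2 and DES, genes of stromal and muscle cells. STMN1 and TOP2A were not called there, with ratios of 1.59 and 1.57.

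**Figure D4:**
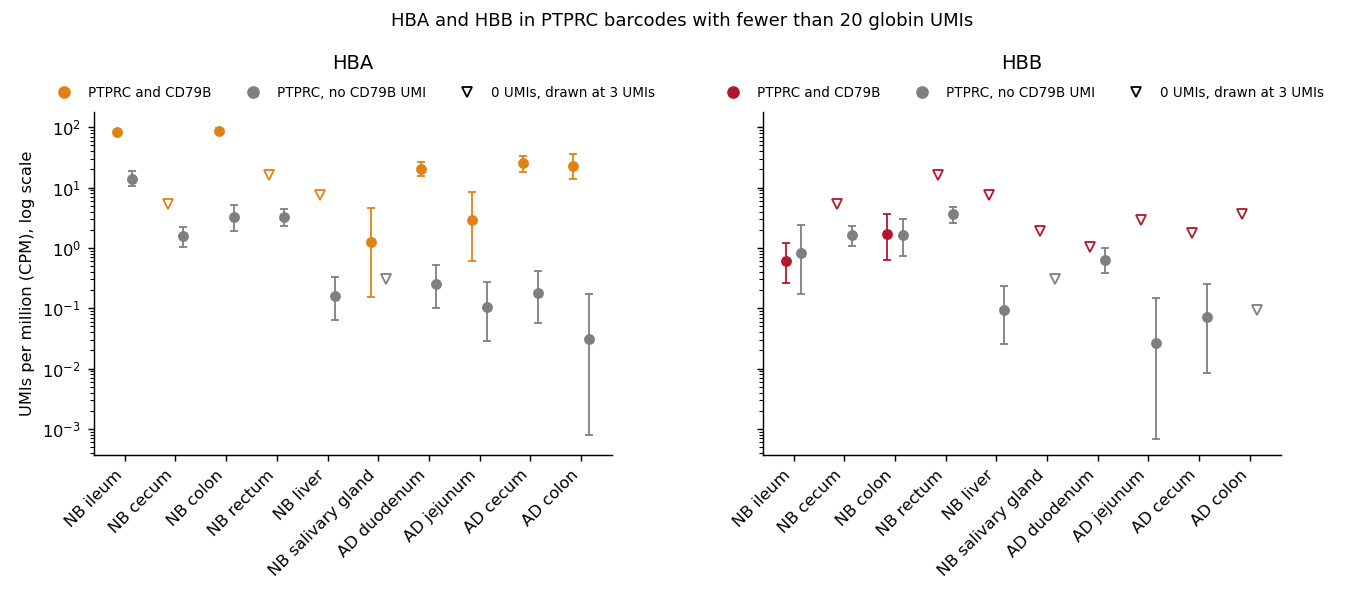
HBA (left) and HBB (right) levels in CPM (log axis) in PTPRC barcodes with fewer than 20 globin UMIs, in 10 libraries with 95% counting intervals. Barcodes with CD79B and without CD3E and C1QB are set beside all those without a CD79B UMI. For HBA the intervals were apart in the NB ileum and colon and in the 4 AD libraries, with the highest level in the NB colon (87.4 CPM).

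HBA in EPCAM barcodes was likewise not shared evenly. The AD jejunum held 39 HBA UMIs in EPCAM barcodes. All of them lay in the 76 barcodes with both LTC4S, a leukotriene synthase, and GNG13, a G protein subunit of chemosensory cells (87.1 CPM). The 195 others held 0, and the level was 71.8-fold that of a floor of 3 UMIs in them. The 39 UMIs were bunched in 24 barcodes. In the AD cecum the levels were 74.0 CPM with both genes against 2.95 CPM without (6 and 11 UMIs), in the AD colon 0 UMIs in 10 barcodes, and in the NB abomasum 1 UMI in 29 barcodes. In the AD duodenum 6 of the 10 HBA UMIs lay in 1 of the 47 EPCAM barcodes that did not hold both genes. LTC4S and GNG13 were among the first 5 of the 551 of 7254 genes (7.60%) that were higher in EPCAM barcodes with HBA of the AD jejunum, so this split used the same barcodes.

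In the NB gut the EPCAM barcodes with HBA were led by other genes, and the secretory genes SPINK4 and MPTX were called in the duodenum, jejunum, ileum, colon and rectum. In the NB duodenum 147 of 8769 genes (1.68%) were higher, led by TFF3 and SPINK4, secreted products of goblet cells, with CHGA, a gene of hormone-secreting cells, between them. In the NB jejunum 85 of 7421 genes (1.15%) were higher, led by SPINK4 and PLA2G2A, an antibacterial phospholipase. In the NB abomasum 159 of 6759 genes (2.35%) were higher, with CHGA and with ATP4A and ATP4B, the subunits of the gastric proton pump, among the first 4. In the NB colon 190 of 8079 genes (2.35%) were higher, led by SST and CHGA, both genes of hormone-secreting cells, with the secretory genes LYSB, TFF2, MPTX, SPINK4, REG4 and TFF3 among the first 15.

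These barcodes were deeper than the others in 5 of 7 libraries, with medians of 18399 against 8909 UMIs in the NB colon and 16112 against 11434 UMIs in the NB jejunum, and the part of depth was not tested. In the NB rectum 168 of 7366 genes (2.28%) were higher, with C1QA, C1QC and C1QB of macrophages among the first 4 and the secretory genes SPINK4, LYZ1, MPTX, REG4, LYSB, PLA2G2A and TFF2 among the first 14, and LTC4S and GNG13 were called as well. In the NB ileum 147 of 8363 genes (1.76%) were higher, with MS4A1 and CD37 of B cells among the first 4 and REG4, REG3G and SPINK4 among the first 11. In the NB jejunum the EPCAM barcodes held 73 HBA and 0 HBB UMIs, and in the NB duodenum 103 HBA and 13 HBB UMIs.

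Over the 15 libraries, HBA and HBB had the most similar levels of the 3 genes (Pearson's r = 0.99 on log2(CPM + 1)), whereas r was 0.42 between HBB and HBG and 0.48 between HBA and HBG, and 0.66 and 0.68 over the 11 NB libraries. Among 12878 genes with a mean of 1 CPM or more, the gene most like both HBB (r = 0.98) and HBA (r = 0.99) was ENSBTAG00000054844, a gene without a symbol in the tables. By Spearman's correlation MST1 was the most like HBB (0.91), ahead of ENSBTAG00000054844 (0.87), which stayed the most like HBA. The 5 genes most like the sum of the 3 globins were ENTPD6 (r = 0.92), PTI (0.89), GFPT1 (0.89), CMYA5 (0.87) and ENSBTAG00000049782 (0.86). The libraries share animals and protocols, so these values are descriptions.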

How the data were processed

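Single-cell 3' libraries (10x Genomics, v3 chemistry) of 11 tissues (15 libraries) were sequenced by the authors, who counted UMIs per gene and barcode with Cell Ranger 3.1.0 after alignment to ARS-UCD1.2. Raw counts, not normalized, were deposited. Reads that match several genes are dropped by this counter, so near-identical globin copies may be undercounted. From the counts, CPM, exact Poisson and Clopper-Pearson intervals (95%, covering counting error only) and shares after thinning to 1000 UMIs were computed with Python 3.11.15, numpy 2.4.6, scipy 1.17.1 and pandas 2.3.3. All barcodes were used for library levels and for barcodes with 20 or more globin UMIs, and those within the stated limits on genes, UMIs and mitochondrial share for marker groups. No doublet caller was run. Barcodes with more than 1 of EPCAM, PTPRC and PECAM1 were left out of the comparison of these 3 groups. Ratios of genes between the kinds of barcode carried a pseudocount of 20 CPM, and those of the NB cecum comparison 5 CPM. With 1 library per tissue and stage no test was run. The genes named were the 3 globins, the red cell and marker lists, the 5 genes most like the globin sum and those with the highest ratios. The members and lists were chosen with earlier results of these data known. Results on some other genes are not reported here.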

Additional observations from a re-analysis of the deposited data

Results flagged for a closer look

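The direction of the NB to AD difference was not the same in the 4 tissues, which was not tested since each library stood alone. The 3 globins together had an NB to AD ratio of 2.08 in the duodenum, 0.289 in the jejunum, 18.6 in the cecum and 30.8 in the colon. For HBG alone the ratio was 0.338 in the duodenum, 0.257 in the jejunum, 5.45 in the cecum and 6.77 in the colon. Among barcodes with 20 or more globin UMIs, the AD libraries held 0 with HBA, and all 4 came from suspensions with red cell lysis, so that stage and lysis cannot be told apart.

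A gene outside the 3 globins, ENSBTAG00000054844, had a median of 12040 CPM in the barcodes with HBA (20 or more globin UMIs) of 4 NB libraries, against 0.390 CPM in the other barcodes. It was found in 58 of 59 of these barcodes, at 5892 to 19544 CPM per library. With only the 43 barcodes with at least 50% globin it stood at 43946 CPM in the NB rectum, 77430 CPM in the NB colon, 97785 CPM in the NB duodenum and 119737 CPM in the NB cecum, so its level and the order of the libraries depended on a few deep barcodes with little globin. It was singled out after its values were seen, and the tables give it no symbol.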

How the results depend on the processing

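The number of barcodes with 20 or more globin UMIs went from 346 to 585 at 10 UMIs, 148 at 50 UMIs and 46 with at least 50% globin. Barcodes with HBG and little HBA went from 282 to 491 at 10 UMIs and 86 at 50 UMIs. Those with HBA went from 64 to 94 at 10 UMIs, 62 at 50 UMIs and 58 with at least 5% globin. The 46 with at least 50% globin were all of the kind with HBA. Within the limits on barcodes lay 12 of the 64, against 273 of the 282. The median HBG share of the AD libraries was 99.6% in barcodes under 20 globin UMIs, and that of the NB libraries moved from 66.7% to 92.5% there, 94.3% within the limits on barcodes and 36.6% in barcodes with 20 or more. These NB medians rested on 10, 10, 9 and 9 libraries in turn, so part of the change can come from the libraries used. Over all barcodes no NB library lay between 39.0% (cecum) and 94.4% (abomasum), a gap that held the median of 66.7%. The count of red cell list genes higher in the NB cecum went from 0 to 2 without a minimum level. It went to 13 with at least 50% globin, where a lone UMI could be enough for a call. Of the 5 genes most like the globin sum, 2 remained with the 11 NB libraries and 3 with Spearman's correlation. Genes higher in barcodes with HBG and little HBA numbered 105 against all other barcodes, and genes higher in barcodes with HBA 35 with at least 50% globin. Ratios that crossed 1 were, within the limits on barcodes, the 3 globins in the duodenum (0.376), HBA in the jejunum (1.04) and HBA in the cecum (0.634). With only barcodes under 20 globin UMIs they were the 3 globins in the duodenum (0.101) and jejunum (1.14), HBG in the jejunum (1.203) and HBA in the duodenum (0.862) and cecum (0.812). The limits remove most barcodes with HBA by construction. The alternatives on the 2 kinds of barcode, their genes and CD79B were chosen after seeing the data, and HBA was higher with CD79B with intervals apart in 6 libraries under each of those on CD79B. No paired analysis was possible because the libraries carry no replicate numbers and no test was run: the tissues sampled at both stages were set side by side, and their AD libraries come from the same cow.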
